A study of Mus musculus and synthetic construct with 30 samples.

Results

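The Wnt ligands, the Frizzled receptors and their secreted or membrane-bound modulators were followed across 3 mouse tissues and across the loss of 1 lincRNA locus. The genes were taken by symbol, as every Wnt, Fzd, Sfrp, Dkk and Rspo gene with a number in its name plus Lgr4, Lgr5 and Lgr6. This gave 44 genes of the 26759 quantified: 19 Wnt, 10 Fzd, 4 Sfrp, 4 Dkk, 4 Rspo and 3 Lgr genes. The rule uses the symbol and no measured value, although it was set with earlier results of these data known.

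The study asked what is lost with the gene body of Peril, a long intergenic noncoding RNA (lincRNA) locus, in mice of strain Periltm1.1Vlcg that carry a LacZ reporter in its place. Wild-type (WT) and knockout (KO) samples shared a mixed C57BL/6J/129S6 background, labelled N3-C57BL/6J, without the Neo cassette. PolyA RNA was sequenced from 16 samples. Murine embryonic stem cells (mESC) gave 3 WT and 3 KO wells, all male. The wells of each genotype came from 1 clone, so clone and genotype cannot be told apart. The p-values there take in no spread between clones, and the spread behind them was estimated over all 16 libraries together. The cells had been grown in 2i medium on feeder fibroblasts, the KO wells to a later passage. Kidneys came from 1 litter at E14.5, with WT embryos 1 (male), 3 (female) and 8 (male) and KO embryos 7 (male), 9 (female) and 10 (female). Ganglionic eminence with olfactory bulb (GE/OB) came from another E14.5 litter, with WT embryos 1 and 3, both male, and KO embryos 2 and 7, both female. In GE/OB an effect of genotype therefore cannot be told apart from one of sex. The embryos were progeny of heterozygous matings.

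Each library held between 17544707 and 45924887 expected counts. LacZ stood at 71.6 ± 2.04 TPM (SD, n = 3) in KO mESC and at 45.1 ± 0.962 TPM (SD, n = 2) in KO GE/OB, and at no more than 0.1 TPM in the WT libraries of both. In kidney it reached 0.15 TPM in KO and 0.47 TPM in WT, and Peril had 0 counts in kidney and GE/OB of both genotypes. The genotype of the kidney libraries was therefore not checked by either transcript. In mESC Peril was read at 0.47 ± 0.125 TPM in WT and still at 0.213 ± 0.0462 TPM in KO wells (SD, n = 3 each). The labelled tissues carried their markers. The 8 stem cell markers summed to between 8296 and 8623 TPM in mESC and the 10 ganglionic eminence markers to between 1321 and 1447 TPM in GE/OB. In kidney the 6 stroma markers summed to between 364 and 414 TPM, each reaching 1 TPM in some library, beside at most 51.2 TPM in GE/OB. Kidney also held 10 nephron markers, at a summed 332 to 429 TPM, and 7 ureteric bud markers, at 137 to 202 TPM. In WT kidney 2 of the 10 and 1 of the 7 stayed below 1 TPM in every library. GE/OB also held cortex markers, at a summed 641 to 782 TPM, a list that shares Tbr1 with the 6 olfactory bulb markers (283 to 336 TPM), so cortical and olfactory bulb cells cannot be told apart by these sums. These are bulk samples, in which fewer cells of a type and less RNA per cell cannot be told apart.

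Wnt proteins are secreted lipid-modified ligands that are received by Frizzled receptors together with the co-receptors Lrp5 and Lrp6. In the canonical branch this stops the destruction of beta-catenin, which then enters the nucleus and acts with TCF/LEF factors on target genes, whereas other Wnt signals steer cell polarity and movement. Sfrp proteins bind Wnt ligands outside the cell, Dkk proteins block the Lrp co-receptors, and R-spondins (Rspo) bind Lgr4, Lgr5 and Lgr6 and thereby keep Frizzled at the cell surface. In the embryonic kidney, Wnt9b and Wnt11 come from the branching ureteric bud and Wnt4 from the forming nephron. In the embryonic forebrain, Wnt7a and Wnt7b are made by neural cells and act on the growing blood vessels. The medium called 2i contains an inhibitor of GSK3, a kinase of the beta-catenin destruction complex.

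TCF/LEF factors read short DNA words, and some genes of the pathway carry such a word near their start. RefSeq promoter sequence (build GRCm38.p6, the build called mm10) from 250 bases before to 50 bases after the start was at hand for 29 of the 44 genes. The words CTTTGAA and CTTTGAT were searched on both strands. They were present for 3 of the 29, which is 10.3%, against 9.88% of 27025 genes in the same table and against 6 of 56 other genes of the pathway (10.7%). The share was thus close to that of all genes. The 3 promoter stretches of the ligand and inhibitor genes and 2 stretches of pathway genes that differed between KO and WT mESC (Sp5 and Tnfrsf19, below) are shown, on the strand of the gene, with the word in capitals.
Wnt11 (chr7:98835050-98835079, + strand): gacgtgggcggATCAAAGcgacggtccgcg
Wnt5b (chr6:119449439-119449468, - strand): agtaagtctctCTTTGATctgctccctgtc
Dkk1 (chr19:30549595-30549624, - strand): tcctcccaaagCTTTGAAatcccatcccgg
Sp5 (chr2:70474808-70474837, + strand): ggcaaggccccCTTTGATcaggaaaatcca
Tnfrsf19 (chr14:61038171-61038200, - strand): ctgaatgggggATCAAAGtgacaaactaga
In Wnt11 and Tnfrsf19 the word lies on the strand opposite to the gene, and in Wnt5b, Dkk1 and Sp5 on the same strand. Sp5 and Tnfrsf19 are among 6 other pathway genes with the word and are shown because they were called between genotypes. These matches describe the letters only, and a link between the word and the change in KO was not tested.

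Levels were compared first, in TPM, a share of all transcripts that accounts for gene length. A gene was counted as present where it reached 1 TPM in every library of a tissue. Kidney had the widest set, with 28 of 44 genes (46.8% of all 26759 genes met the same rule), GE/OB had 19 (49.9% of all genes) and mESC 13 (43.2% of all genes). The share of these signalling genes was thus above the background in kidney and below it in mESC. Present in all 3 tissues were 9 genes: Wnt5b, Fzd2, Fzd6, Fzd7, Fzd8, Sfrp1, Sfrp2, Dkk3 and Lgr4. Present in kidney alone were 10: Wnt2, Wnt4, Wnt6, Wnt9b, Wnt11, Sfrp5, Dkk1, Dkk2, Rspo1 and Lgr5. GE/OB alone had Wnt7a. Kidney and GE/OB shared 7 further genes (Wnt2b, Wnt5a, Wnt7b, Fzd1, Fzd3, Fzd4 and Rspo3), mESC and GE/OB shared Fzd5 and Fzd9, and mESC and kidney shared Fzd10 and Sfrp4. The other 13 reached the rule in no tissue: Wnt1, Wnt3, Wnt3a, Wnt8a, Wnt8b, Wnt9a, Wnt10a, Wnt10b, Wnt16, Dkk4, Rspo2, Rspo4 and Lgr6.

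**Figure D1:**
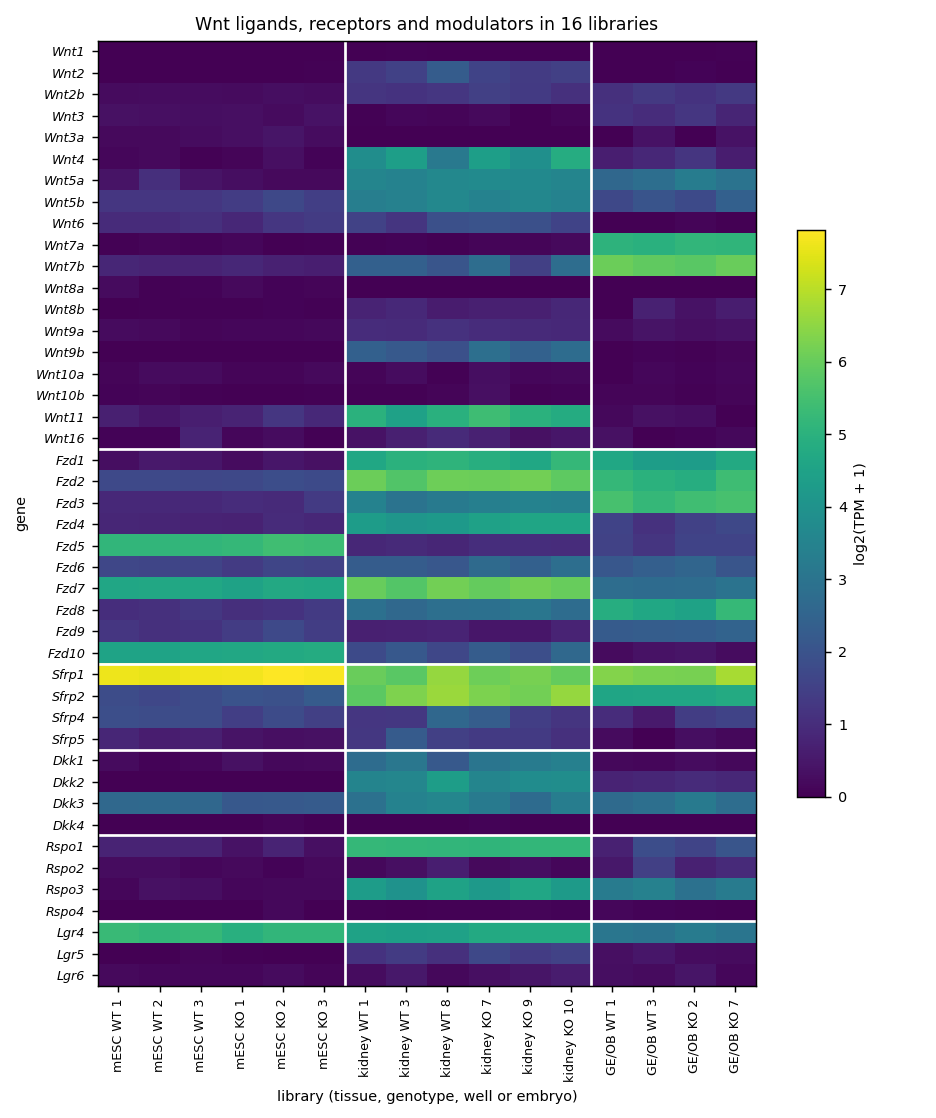
Level of each of the 44 genes (rows, grouped by family) in each of the 16 libraries (columns, named by tissue, genotype and well or embryo), as log2(TPM + 1). Sfrp1 is bright in every library and brightest in mESC, Wnt7a and Wnt7b stand out in GE/OB, and the block of Wnt4, Wnt9b, Wnt11, Dkk1, Dkk2 and Rspo1 is filled in kidney.

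The tissues were then compared on counts with edgeR's quasi-likelihood test over 17459 genes, with adjusted p-values (Benjamini-Hochberg) taken over all of them. Counts are scaled between libraries in another way than TPM, so the order of tissues can differ, as for Sfrp1 below. A gene was called between tissues at an adjusted p under 0.05 and a change of over 2-fold. Of the 44 genes, 38 passed the filter on low counts. Wnt1, Wnt8a, Wnt10a, Wnt10b, Dkk4 and Rspo4 did not, and each of these 6 stayed at or below 0.25 TPM in every library. Between kidney and GE/OB 33 of the 38 were called (46.4% of all genes tested), 25 of them higher in kidney (24% of all genes) and 8 lower (22.3%). Between mESC and kidney 32 were called (53% of all genes), 6 of them higher in mESC (21.8%) and 26 lower (31.3%). Between mESC and GE/OB 27 were called (61.1% of all genes), with 9 higher in mESC (27.1%) and 18 lower (33.9%). The median log2 fold change of the 38 was 1.73 for kidney against GE/OB, beside 0.05 for all genes, -2.57 for mESC against kidney, beside -0.10, and -0.67 for mESC against GE/OB, beside -0.08. These 3 comparisons share libraries. With a gene at or under 3 counts in both tissues left out and a gene at 0 counts set to its bound, these medians were 1.73, -2.57 and -0.77.

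Among the ligands, the summed level of the 19 Wnt genes separated mESC from both tissues. The sum was 5.97 ± 0.70 TPM in mESC (SD, n = 6), 86.0 ± 11.5 TPM in kidney (SD, n = 6) and 108 ± 4.03 TPM in GE/OB (SD, n = 4). Within kidney the 3 WT sums averaged 77.9 ± 1.77 TPM (SD) and the 3 KO sums 94.0 ± 11.6 TPM, and no test was run on them. Kidney drew this from many genes, and Wnt11 and Wnt4 together made up 49.1% to 57.8% of it. GE/OB drew it from a pair of close paralogues, Wnt7b and Wnt7a, which made up 84.9% to 90.1% of it. In mESC Wnt5b led with 23.1% to 30.9% and no ligand but Wnt5b reached 1 TPM in every well.

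**Figure D2:**
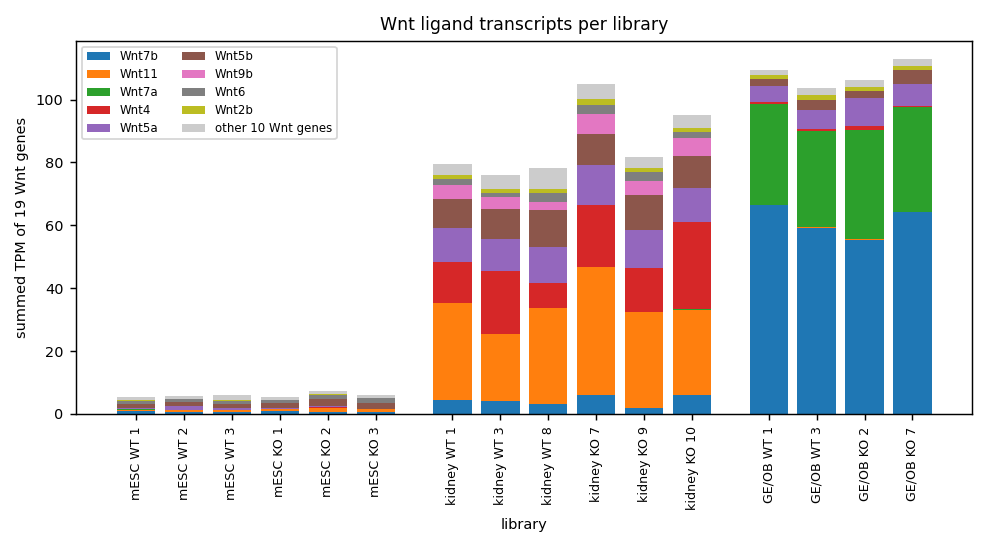
Summed TPM of the 19 Wnt genes in each library (stacked bars), with the 9 genes of highest mean level in colour and the other 10 in grey. The mESC bars end between 5.26 and 7.26 TPM, the kidney bars between 76.1 and 105 TPM and the GE/OB bars between 104 and 113 TPM.

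Wnt7b had 66.4 and 59.2 TPM in the WT and 55.4 and 64.1 TPM in the KO GE/OB libraries. It lay between 1.79 and 5.96 TPM in kidney and between 0.58 and 0.81 TPM in mESC, so that no 2 tissues overlapped. Its log2 fold change was -3.28 ± 0.20 (SE) for kidney against GE/OB (adjusted p = 1.2e-10, edgeR) and -5.78 ± 0.25 for mESC against GE/OB (adjusted p = 5.3e-13). Wnt7a had 32.2 and 30.4 TPM in WT and 34.8 and 33.5 TPM in KO GE/OB. In kidney it stayed at or below 0.14 TPM and in mESC at or below 0.1 TPM, and its log2 fold change against GE/OB was -8.39 ± 0.18 in kidney and -8.55 ± 0.19 in mESC. Both genes were thus high in GE/OB, but Wnt7a had only 32 counts in all of kidney and 19 in mESC, whereas Wnt7b had 1933 and 271. AU022754 overlaps Wnt7b on the other strand and stood at 1.24 to 2.19 TPM in GE/OB. The libraries carry no strand, so a read within the overlap could not be assigned by strand.

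Wnt11, which steers ureteric bud branching, was the ligand of highest mean level in kidney, although Wnt4 exceeded it in KO embryo 10. It had 31.0, 21.2 and 30.4 TPM in WT embryos 1, 3 and 8 and 40.8, 30.7 and 27.2 TPM in KO embryos 7, 9 and 10, against at most 1.38 TPM in mESC and at most 0.27 TPM in GE/OB. Its log2 fold change in kidney against GE/OB was 8.51 ± 0.26 (adjusted p = 8.7e-15, edgeR), from 9 counts in all 4 GE/OB libraries. Wnt9b, the bud signal that induces nephrons, had 4.27, 3.57 and 2.78 TPM in WT and 6.21, 4.36 and 5.78 TPM in KO kidney, with 2898 counts there, 3 counts in the 6 mESC libraries and 8 in GE/OB. The ratio of its CPM (counts scaled to library size) in kidney over mESC was 903, with an exact 95% interval of 309 to 4381 that covers counting error only.

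Wnt4, which marks the condensing nephron, ranged from 7.97 TPM in WT embryo 8 to 27.7 TPM in KO embryo 10, the widest range of the ligands above 5 TPM in kidney. The nephron marker list moved with it in part, with its lowest sum, 332 TPM, also in WT embryo 8, while KO embryo 10 had 386 TPM within a range that reached 429 TPM. WT embryo 8 also held the highest kidney level of Wnt2 (3.8 TPM), Dkk2 (19.3 TPM), Sfrp1 (94.1 TPM), Sfrp2 (99.2 TPM) and Sfrp4 (5.15 TPM). In that library the kidney stroma markers summed to 414 TPM, the highest of the 6, and the ureteric bud markers to 137 TPM, the lowest. The fibroblast list stood further apart there, at 1627 TPM beside 950 to 1190 TPM in the other 5 libraries, and so did the meninges list, at 809 TPM beside 464 to 570 TPM. The fibroblast list shares Col1a1 and Col1a2 with the meninges list and Pdgfrb with the stroma list, so these sums are not separate readings. The part of these cell types in the levels was not tested.

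Wnt2 and Wnt6 were read at low level in kidney and almost not at all in GE/OB. Wnt2 had 1.44, 1.84 and 3.8 TPM in WT and 1.98, 1.59 and 1.79 TPM in KO kidney, from 575 counts, against 2 counts in GE/OB and 1 count in mESC. The CPM ratio was 133 over GE/OB (exact 95% interval 36.8 to 1104) and 537 over mESC (96.1 to 21263). Wnt6 had 1.91, 1.33 and 2.77 TPM in WT and 3.03, 2.75 and 1.97 TPM in KO kidney, and 0.93, 0.93 and 1.1 TPM in WT and 0.81, 1.36 and 1.54 TPM in KO mESC. Against its 2 counts in GE/OB, the ratio was 142 for kidney (39.1 to 1175) and 60.6 for mESC (16.6 to 503). Wnt6 was the second ligand of mESC by mean level, after Wnt5b, and it did not pass 2-fold between mESC and kidney, at a log2 fold change of -0.98 ± 0.21.

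Wnt3 and Wnt3a, a pair of canonical ligands, followed the opposite order to the kidney genes. Wnt3 had 1.19 and 1.01 TPM in WT and 1.36 and 0.75 TPM in KO GE/OB, 0.18 to 0.31 TPM in mESC and 0 to 0.14 TPM in kidney. Its log2 fold change for kidney against GE/OB was -3.45 ± 0.41 (adjusted p = 6.5e-07, edgeR). Wnt3a had 0 counts in all 6 kidney libraries, which allows up to 0.0156 CPM over the group, and 63 counts in mESC, so it was at least 22.5-fold higher in mESC. The mESC wells had 0.15, 0.15 and 0.19 TPM in WT and 0.24, 0.37 and 0.21 TPM in KO. In GE/OB it was read in WT embryo 3 (0.29 TPM) and KO embryo 7 (0.31 TPM) and at 0 in WT embryo 1 and KO embryo 2. It was at least 10.8-fold higher there than in kidney by summed counts (15 in GE/OB), a difference whose call was lost without either of the embryos that had it (adjusted p = 1 in both, edgeR). Wnt8b was also at 0 in WT embryo 1 and at 0.64, 0.29 and 0.55 TPM in the other GE/OB libraries, but at 0.52 to 0.86 TPM in kidney.

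Wnt5a and Wnt5b, ligands known mostly for polarity signals, were both present in kidney and GE/OB, and Wnt5b in mESC as well. Wnt5a had 11.3 ± 0.913 TPM in kidney (SD, n = 6), 6.71 ± 1.56 TPM in GE/OB (SD, n = 4) and 0.373 ± 0.351 TPM in mESC (SD, n = 6). Wnt5b had 10.3 ± 0.887, 2.99 ± 0.913 and 1.62 ± 0.345 TPM in the same order, and its mESC and GE/OB counts did not pass the test (log2 fold change -0.20 ± 0.17, adjusted p = 0.28, edgeR). Wnt2b lay at 1.40 ± 0.249 TPM in kidney and 1.32 ± 0.186 TPM in GE/OB and did not pass 2-fold between them. Wnt9a reached 0.88 to 1.15 TPM in kidney and Wnt16 0.28 to 0.91 TPM, and both stayed lower in mean in GE/OB and mESC. Wnt1, Wnt8a, Wnt10a and Wnt10b, which drive midbrain, gastrulation and later skin or bone programmes, were near the floor. Wnt1 had 1, 3 and 1 counts in mESC, kidney and GE/OB, Wnt8a 16, 0 and 0, Wnt10a 34, 41 and 6, and Wnt10b 8, 17 and 4.

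The receptors were more widely present than the ligands, with 7 of 10 Frizzled genes at 1 TPM in every library of mESC, 8 in kidney and 9 in GE/OB. Their summed level was 94.6 ± 6.43 TPM in mESC (SD, n = 6), 200 ± 15.7 TPM in kidney (SD, n = 6) and 144 ± 19.1 TPM in GE/OB (SD, n = 4). The leading genes by mean level differed between tissues. In mESC Fzd5 came first, with Fzd10 and Fzd7 close together behind it, and Fzd5 with Fzd10 made up 62.9% to 66.8% of the sum. The leading pair was in kidney Fzd7 with Fzd2 (58.3% to 65.7%) and in GE/OB Fzd3 with Fzd2 (51.2% to 54.1%).

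Fzd5 had 34.3, 34.7 and 34.8 TPM in WT and 35.9, 42.0 and 40.4 TPM in KO mESC. It stayed between 0.78 and 1.03 TPM in kidney and between 1.31 and 1.97 TPM in GE/OB, and it was higher in mESC by 5.35 ± 0.06 on the log2 scale against kidney (adjusted p = 1.7e-20, edgeR) and by 5.03 ± 0.07 against GE/OB (adjusted p = 1.9e-19). Fzd10 had 22.3, 22.4 and 23.7 TPM in WT and 24.6, 26.0 and 27.0 TPM in KO mESC. It fell to 2.14 to 5.19 TPM in kidney and to 0.18 to 0.35 TPM in GE/OB, with log2 fold changes of 2.96 ± 0.13 and 7.15 ± 0.24 for mESC against each. Both receptors were thus high in every stem cell well. Fzd10 was also higher in kidney than in GE/OB, by 4.19 ± 0.28 on the log2 scale, whereas Fzd5 did not pass 2-fold between them (-0.33 ± 0.08).

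Fzd7 had 63.7, 51.8 and 70.1 TPM in WT and 61.4, 69.7 and 63.4 TPM in KO kidney. It had the highest mean of the family there, 63.4 ± 6.67 TPM, which did not differ beyond the spread from that of Fzd2. In mESC it had 24.03 ± 1.27 TPM (SD, n = 6), beside 24.3 ± 1.92 TPM of Fzd10, and it exceeded Fzd10 in all 3 WT wells and in none of the 3 KO wells. It stood at 6.08 ± 0.535 TPM in GE/OB (SD, n = 4). Fzd2, at 62.9 ± 7.14 TPM in kidney and 33.9 ± 5.41 TPM in GE/OB, was read at 2.33 ± 0.154 TPM in mESC. Fzd4, the vascular receptor that also binds Norrin, was high in kidney alone, at 16.1 to 23.3 TPM against 1.17 to 2.25 TPM in GE/OB and 0.69 to 0.93 TPM in mESC.

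Fzd3, needed for axon tracts, had 45.3 and 36.1 TPM in WT and 41.9 and 45.3 TPM in KO GE/OB. Kidney had 6.95 to 10.0 TPM and mESC 0.87 to 1.51 TPM, and the log2 fold change against GE/OB was -1.62 ± 0.08 in kidney (adjusted p = 4.1e-12, edgeR) and -4.85 ± 0.10 in mESC (adjusted p = 1.4e-17). Fzd8 followed the same order with 27.8 ± 6.70 TPM in GE/OB (SD, n = 4), 6.23 ± 0.741 TPM in kidney and 1.22 ± 0.186 TPM in mESC, and Fzd9 stood at 4.07 ± 0.389 TPM in GE/OB but lowest in kidney, at 0.572 ± 0.149 TPM. Fzd1 had 29.4 ± 4.61 TPM in kidney and 22.2 ± 3.41 TPM in GE/OB, with ranges that overlapped, although its counts just passed 2-fold (log2 fold change 1.02 ± 0.13), and it was at most 0.44 TPM in mESC. Fzd6 was the most even of the family, from 1.54 TPM in mESC to 6.04 TPM in kidney.

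**Figure D3:**
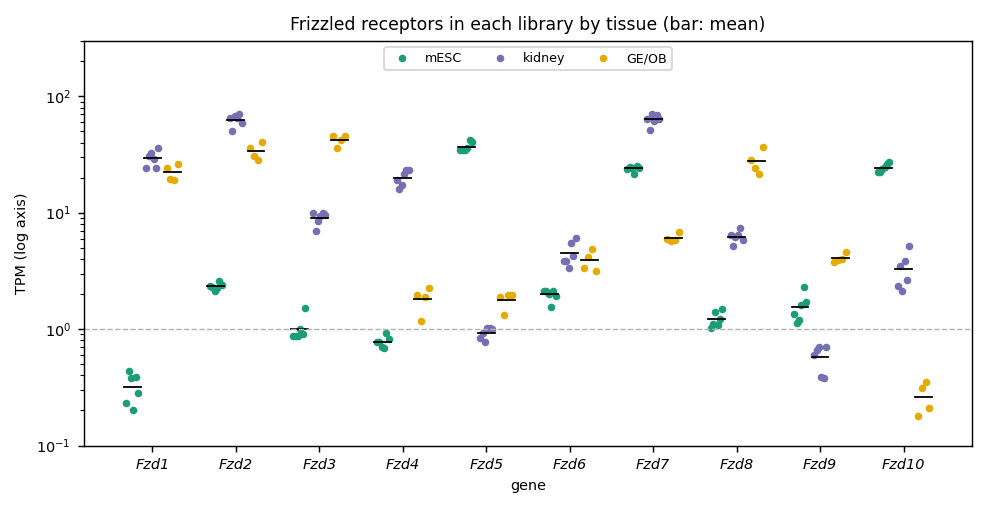
TPM of the 10 Frizzled genes in each library (points, log axis) by tissue, with the mean of each tissue as a bar and a dashed line at 1 TPM. Fzd5 and Fzd10 are highest in mESC, Fzd2, Fzd4 and Fzd7 in kidney, and Fzd3, Fzd8 and Fzd9 in GE/OB.

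The R-spondins and their receptors were not matched in level in mESC. Between kidney and GE/OB both summed levels were higher in kidney, at 54.4 against 11.4 TPM for Rspo and 25.5 against 7.92 TPM for Lgr. Lgr4 made up 91.2% to 99.8% of the summed Lgr level in each library and was highest in mESC, at 34.8 ± 3.01 TPM (SD, n = 6), where no Rspo gene exceeded 0.73 TPM in any well. Kidney had 23.6 ± 2.76 TPM of Lgr4 (SD, n = 6) and GE/OB 7.46 ± 0.708 TPM (SD, n = 4). Lgr5, a stem cell marker of adult epithelia, had 1.21, 1.58 and 1.11 TPM in WT and 2.22, 1.63 and 1.9 TPM in KO kidney and stayed at or below 0.39 TPM elsewhere. Lgr6 stayed at or below 0.51 TPM in all libraries.

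Rspo1 led its family in kidney and varied little there, with 35.6, 35.1 and 34.2 TPM in WT and 34.1, 35.0 and 35.2 TPM in KO embryos. It was at 0.26 to 0.73 TPM in mESC and varied in GE/OB from 0.66 TPM in WT embryo 1 to 3.16 TPM in KO embryo 7. Rspo3 led in GE/OB, with 8.47 and 9.73 TPM in WT and 6.56 and 8.56 TPM in KO, and reached 14.9 to 23.8 TPM in kidney. Rspo2 had 0.41 and 1.79 TPM in WT and 0.63 and 0.91 TPM in KO GE/OB. WT embryo 1 of GE/OB thus held the lowest Rspo1 and Rspo2 as well as no Wnt3a and no Wnt8b. Its choroid plexus and hem markers summed to 18.99 TPM, the lowest of the 4 libraries, beside 19.4 TPM in KO embryo 2 and up to 23.1 TPM. Of these 6 markers, 4 stayed below 1 TPM in both WT libraries and 5 in both KO libraries. Their part in these values was not tested.

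Among the inhibitors, Sfrp1 had the highest level of all 44 genes in mESC and GE/OB, while in kidney Sfrp2 exceeded it in 4 of 6 libraries. Sfrp1 had 195, 189 and 199 TPM in WT and 205, 225 and 212 TPM in KO mESC, 81.4 and 75.3 TPM in WT and 73.1 and 110 TPM in KO GE/OB, and 55.3 to 94.1 TPM in kidney. It was higher in mESC by 1.61 ± 0.12 on the log2 scale against kidney (adjusted p = 7.6e-10, edgeR) and by 1.92 ± 0.14 against GE/OB (adjusted p = 5.5e-10). On counts Sfrp1 was higher in kidney than in GE/OB, by 0.316 on the log2 scale, short of 2-fold. Its mean TPM stood the other way, at 69.2 in kidney and 85.0 in GE/OB. Sfrp2 had 56.4, 77.8 and 99.2 TPM in WT and 77.1, 69.8 and 95.4 TPM in KO kidney, 23.3 to 26.6 TPM in GE/OB and 2.17 to 3.73 TPM in mESC. Sfrp4 and Sfrp5 were minor, at most 5.15 and 3.71 TPM.

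Dkk2 and Dkk1, which bind Lrp5 and Lrp6, were at 1 TPM or more in kidney alone among these tissues. Dkk2 had 10.5, 11.0 and 19.3 TPM in WT and 10.7, 13.1 and 13.2 TPM in KO kidney, 0.73 to 0.95 TPM in GE/OB and at most 0.02 TPM in mESC, where it had 5 counts. Its log2 fold change for mESC against kidney was -10.08 ± 0.31 and for mESC against GE/OB -5.52 ± 0.58, and both rest on those 5 counts. Dkk1 had 3.51 to 9.54 TPM in kidney and at most 0.28 TPM elsewhere. Dkk3, a divergent member of the family, led in mESC and GE/OB, with 5.52 and 6.22 TPM in WT and 8.05 and 6.01 TPM in KO GE/OB. Dkk4 had 1 count in mESC, 1 in kidney and 0 in GE/OB.

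The second question was whether the loss of the Peril gene body moved these genes. A gene was called between genotypes at an adjusted p under 0.05. In mESC 2 of the 38 tested genes were called, both lower in KO (6.86% of all tested genes were called, 4.59% lower and 2.27% higher), and the median log2 fold change of the 38 was -0.01, beside -0.03 over all genes. It was 0.01 in kidney, beside 0.00, and 0.15 in GE/OB, beside 0.02. In kidney 0 genes were called by edgeR (0.223% of all genes, 0.0344% higher and 0.189% lower) and in GE/OB 0 (0.063% of all genes, 0.0401% higher and 0.0229% lower). DESeq2 called 3 in mESC (9.42% of all genes) and 0 in the other two. At an unadjusted p under 0.05 there were 5 genes in mESC (21.2% of all genes), 9 in kidney (7.6%) and 2 in GE/OB (3.01%). The share called in mESC was thus not above that of all genes. In kidney the share at an unadjusted p under 0.05, 9 of the 38, was above the 7.6% of all genes, although 0 passed after adjustment. The cause of this was not tested.

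**Figure D4:**
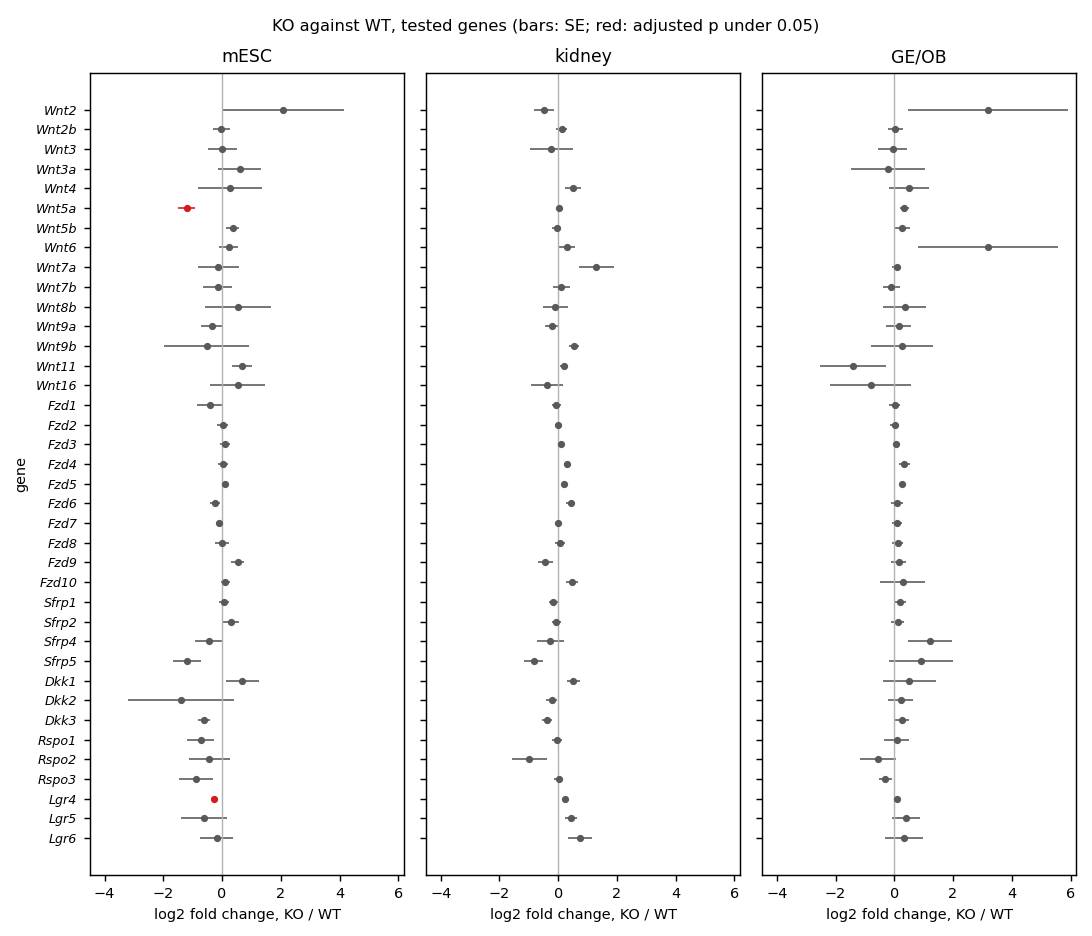
log2 fold change of KO over WT with its SE (points and bars) for the 38 tested genes in mESC, kidney and GE/OB, with called genes in red. Wnt5a (-1.20) and Lgr4 (-0.26) are red in mESC and no gene is red in kidney or GE/OB, and Wnt3a, with 0 counts in kidney, has no point there.

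Lgr4 (ENSMUSG00000050199.7) lies on the + strand of chromosome 2, from base 109917647 to 110014257 of mm10. It had 38.4, 35.5 and 36.7 TPM in WT mESC wells 1, 2 and 3 and 29.5, 34.3 and 34.2 TPM in KO wells 1, 2 and 3. All KO wells were below all WT wells, and in CPM after TMM scaling the wells stood at 140, 130 and 133 in WT and 106, 119 and 113 in KO. The log2 fold change was -0.26 ± 0.06 (adjusted p = 0.010, edgeR). The call was lost without WT well 1 (log2 fold change -0.23, adjusted p = 0.066) and it held without any other 1 of the 16 libraries. In kidney Lgr4 stood the other way, with 21.5, 20.8 and 21.1 TPM in WT and 25.7, 26.4 and 26.3 TPM in KO, every KO above every WT embryo, but its log2 fold change of 0.24 ± 0.06 did not pass (adjusted p = 0.155). The difference of the KO effects, mESC minus kidney, was -0.50 ± 0.08 (adjusted p = 0.0026, edgeR). In GE/OB the WT values of 7.36 and 6.81 TPM and the KO values of 8.46 and 7.19 TPM overlapped.

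Wnt5a (ENSMUSG00000021994.8) lies on the + strand of chromosome 14, from base 28504750 to 28527448 of mm10. It was read at the edge of detection in mESC, with 22, 29 and 34 counts in WT and 15, 6 and 8 counts in KO wells. All KO wells were below all WT wells in CPM after TMM scaling (0.834, 1.05 and 0.965 in WT and 0.538, 0.366 and 0.305 in KO). The log2 fold change was -1.20 ± 0.28 (adjusted p = 0.015, edgeR). In TPM, WT well 2 stood apart at 1.07, beside 0.32 and 0.34 in WT and 0.22, 0.15 and 0.14 in KO. The count of that well was not apart, but the effective length that RSEM gave the gene there was 1277 bases, against 3148 to 3677 bases in the other 5 wells. With these lengths as offsets, the log2 fold change was -1.47 ± 0.44 and the call was lost (adjusted p = 0.068). Leaving out 1 of 4 wells ended the call as well: WT wells 2 and 3 and KO wells 2 and 3, with adjusted p between 0.053 and 0.10. The fibroblast markers, which feeder cells would carry, were lower in KO as well, at a summed 3.85 to 4.91 TPM in WT and 1.69 to 2.5 TPM in KO wells. Among WT wells the order of these sums differed from that of the Wnt5a CPM, and among KO wells it was the same. Of the 10 markers 9 were below 1 TPM in every well, and their part in the result was not tested.

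In kidney Wnt5a did not differ beyond the spread, with 10.9, 9.96 and 11.7 TPM in WT and 12.5, 12.01 and 10.9 TPM in KO (log2 fold change 0.02 ± 0.10, adjusted p = 1). In GE/OB it had 5.08 and 6.07 TPM in WT and 8.76 and 6.93 TPM in KO, which did not overlap but did not pass the test (0.35 ± 0.14, adjusted p = 1, edgeR). Gm2670, which overlaps Wnt5a on the other strand, had 0 counts in all mESC wells. The difference of the KO effects was -1.22 ± 0.30 for mESC minus kidney (adjusted p = 0.043) and -1.55 ± 0.31 for mESC minus GE/OB (adjusted p = 0.022). The first was lost without any of 11 libraries and the second without any of 6, and they share the mESC libraries. For mESC minus kidney these 2 genes were called, both lower (2.24% of all genes, 0.739% higher and 1.5% lower). For mESC minus GE/OB Wnt5a was called (1.08% of all genes, 0.332% higher and 0.745% lower), and for kidney minus GE/OB 0 genes were (0.0344%, all lower). For the last, edgeR gave 0 genes at an unadjusted p under 0.05 as well (4.23% of all genes).

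**Figure D5:**
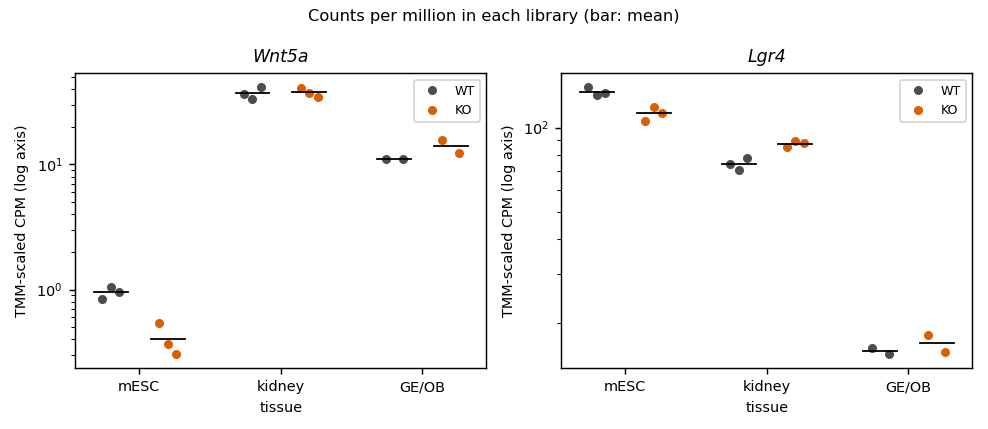
TMM-scaled CPM (log axis) of Wnt5a and Lgr4 in each library, by tissue and genotype, with the group mean as a bar. In mESC all KO wells lie below all WT wells for both genes, and in kidney all KO embryos lie above all WT embryos for Lgr4 but not for Wnt5a.

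The next smallest p in mESC was that of Dkk3, with 5.23, 5.38 and 5.12 TPM in WT and 3.43, 3.55 and 3.79 TPM in KO wells. The groups did not overlap, and the log2 fold change of -0.61 ± 0.20 missed the threshold in edgeR (adjusted p = 0.078) and passed it in DESeq2 (adjusted p = 0.038). In kidney and GE/OB its WT and KO ranges overlapped. Sfrp5 fell short of the threshold as well, with 0.79, 0.55 and 0.6 TPM in WT and 0.33, 0.25 and 0.28 TPM in KO mESC (-1.19 ± 0.46, adjusted p = 0.14), and so did Fzd9 (0.53 ± 0.21, adjusted p = 0.15). When mESC was fitted without the embryonic tissues, the filter used mESC counts alone, and 25.2% of the 14106 genes tested were called. How many of the 44 genes that fit tested is not given here, so their share cannot be set beside the 25.2%. Called were 8 of the 44: Lgr4, Wnt5a, Dkk3, Sfrp5 and Sfrp4 lower and Fzd5, Fzd9 and Fzd10 higher in KO. Their adjusted p lay between 5.2e-05 (Dkk3) and 0.049 (Sfrp4), and Fzd5 and Fzd10 differed by only 0.15 on the log2 scale. The genes other than Lgr4 and Wnt5a were named after their values were seen.

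Rspo, Dkk and Frizzled genes of high level in kidney did not pass the test between genotypes. Fzd4 had a log2 fold change of 0.29 ± 0.09, Wnt9b of 0.53 ± 0.18 and Dkk1 of 0.51 ± 0.21, with adjusted p of 0.44, 0.45 and 0.57 (edgeR). The leading receptors Fzd2 (0.00 ± 0.11) and Fzd7 (-0.02 ± 0.09) and the leading R-spondin Rspo1 (-0.05 ± 0.17) did not pass either. The muscle markers in the kidney libraries, at 46.4 to 48.2 TPM in WT and 20.3 to 23.3 TPM in KO, differed between the genotypes. The nephron (WT 332 to 389, KO 386 to 429 TPM) and ureteric bud sums (WT 137 to 183, KO 162 to 202 TPM) overlapped between them. So did the endothelium (WT 64.2 to 79.4, KO 75.1 to 110 TPM) and stroma sums (WT 363.8 to 414.4, KO 365.1 to 378.5 TPM). The part of these lists in the levels of the genes was not tested. In GE/OB the leading ligands Wnt7b (-0.10 ± 0.29) and Wnt7a (0.07 ± 0.17) did not pass, with adjusted p = 1 for both.

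Of 77 other genes of the pathway, in 6 lists that run from co-receptors to target genes, 76 were tested. In KO mESC 4 were higher and 6 lower (6.86% of all genes were called), 21 had an unadjusted p under 0.05 (21.2% of all genes), and DESeq2 called 13 (9.42% of all genes). In kidney and GE/OB edgeR and DESeq2 called 0, and 9 and 2 had an unadjusted p under 0.05 (7.6% and 3.01% of all genes). The median log2 fold change over the 76 in mESC was 0.03. The 6 co-receptors and receptor kinases and the 11 planar polarity genes had no call. Of the 16 cytoplasmic relay genes Csnk1e was lower, of the 12 nuclear effectors 1 was higher and 3 lower, of the 15 tested targets 2 were higher and 2 lower, and of the 16 further secreted or membrane modulators 1 was higher. The directions were thus mixed within the nuclear and target lists.

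Lef1, a TCF/LEF factor and itself a common target, had 3.97, 3.92 and 3.32 TPM in WT and 1.5, 1.43 and 1.48 TPM in KO mESC wells, a log2 fold change of -1.37 ± 0.16 (adjusted p = 4.5e-05, edgeR). Sp5, a target that reads out canonical signalling in many embryonic cells, stood the other way, with 0.91, 0.87 and 1.22 TPM in WT and 2.95, 3.44 and 3.47 TPM in KO (1.63 ± 0.31, adjusted p = 0.0041). The groups did not overlap for either gene. Tnfrsf19 had 6.18, 5.98 and 6.21 TPM in WT and 4.73, 4.6 and 4.58 TPM in KO (-0.47 ± 0.08, adjusted p = 0.0017). Cdx1, a homeobox gene of the posterior embryo, had 1.15, 1.49 and 1.4 TPM in WT and 3.1, 2.63 and 3.56 TPM in KO (1.14 ± 0.25, adjusted p = 0.014). This call was lost without WT well 1 or 3 or KO well 3, with adjusted p of up to 0.080. Tnfrsf19 and Cdx1, both listed as targets, thus moved in opposite directions.

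Bcl9l, a beta-catenin partner, had 5.01, 4.84 and 5.16 TPM in WT and 6.23, 6.58 and 6.51 TPM in KO mESC (0.29 ± 0.06, adjusted p = 0.0098, edgeR), a call lost without WT well 2 (adjusted p = 0.056). Csnk1e, a kinase that acts on Dvl, had 31.1, 29.6 and 33.7 TPM in WT and 24.8, 28.4 and 27.3 TPM in KO (-0.40 ± 0.05, adjusted p = 8.2e-05). Its WT and KO wells did not overlap. The other 4 called genes were Znrf3 (higher) and Tcf7, Pygo1 and Ascl2 (lower), and each of these calls was lost when any of at least 5 of the 6 mESC wells was left out. Axin2, a widely used target, missed the threshold in edgeR at 0.26 ± 0.08 (adjusted p = 0.053) and passed it in DESeq2 (adjusted p = 0.014), and the co-receptor Lrp6 was at 0.02 ± 0.09.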

How the data were processed

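PolyA RNA-seq libraries (TruSeq v2, no strand information) of 16 samples were used. The authors deposited RSEM gene tables on mm10 with expected counts, TPM and effective lengths; tool versions were not given in the sources used here. The authors tested genotypes with DESeq. A table of reporter barcode counts in C2C12 cells names no gene and was not used.

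Expected counts were rounded and tested with edgeR 4.0.16 (quasi-likelihood, TMM scaling, filterByExpr) in R 4.3.3, with 1 coefficient per tissue and genotype over all 16 libraries. Tissue contrasts averaged WT and KO. p-values were adjusted by Benjamini-Hochberg over 17459 genes; the SE was derived from the F statistic. Deposited TPM described levels. DESeq2 1.42.0 and other settings were alternatives. The fit was tested on simulated data.

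The genes and lists were chosen with earlier results of these data known. Values per library were given for genes called between genotypes, the leading gene of each family and tissue, and the 3 largest folds in each direction per tissue pair; of other pathway genes, the 6 with the smallest p. Wells of 1 clone and littermates limit p-values to the spread between these samples. Intervals cover counting error only. Promoters were matched by symbol; gene positions were taken from GENCODE.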

Additional observations from a re-analysis of the deposited data

Results flagged for a closer look

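For 2 genes the KO effect differed between tissues by an interaction term in edgeR. Lgr4 differed by -0.4983 on the log2 scale between mESC and kidney (adjusted p = 0.0026), with all 3 KO wells below all 3 WT wells in mESC and all 3 KO embryos above all 3 WT embryos in kidney. Its adjusted p was between 0.0013 and 0.013 with each of the 16 libraries left out in turn. The KO effect on Wnt5a differed by -1.2193 between mESC and kidney (adjusted p = 0.043) and by -1.5502 between mESC and GE/OB (adjusted p = 0.022). The first call was lost without any of mESC WT wells 1, 2 and 3, mESC KO wells 2 and 3, kidney WT embryos 1 and 3, kidney KO embryos 7 and 9 and both GE/OB WT embryos (adjusted p of 0.056 to 0.19). The second was lost without any of mESC WT wells 2 and 3, mESC KO wells 2 and 3 and both GE/OB WT embryos (0.060 to 0.11). With gene length offsets they were at adjusted p = 0.14 and 0.10. Both differences for Wnt5a share the same 6 mESC libraries and rest on 114 counts in them, so they are not independent.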

How the results depend on the processing

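Over 38 results and 30 alternative settings, 809 of 880 values kept their direction and their side of the threshold (counts: within 1.5 times), 33 lost the call, 38 counts moved by more and none reversed. Of the 880 values 564 were for single genes, and all 33 losses were among them. These include the largest folds between tissues, which were chosen for their size and could hardly lose the call. The pooled share therefore does not measure how firm the genotype calls are. For KO against WT in mESC, 2 genes were called, 1 with gene length offsets and 0 at an adjusted p under 0.01. Of all 17459 genes, 1198, 904 and 530 were called in these settings. With each tissue fitted on its own the 2 became 8, where the share of all tested genes called rose as well, from 6.86% to 25.2%. For the KO effect in mESC minus kidney, the count of 2 became 1 with length offsets and 1 at 0.01. For mESC minus GE/OB the count of 1 became 0 with each of these. Over all genes the calls fell from 391 to 258 and 157 for the first, and from 188 to 118 and 77 for the second. Of the other pathway genes 10 were called in mESC, 5 at 0.01 and 26 in the separate fit. The cause was not tested. With 1 library left out in turn, the counts of 2, 2, 1 and 10 ranged from 1 to 3, from 1 to 3, from 0 to 1 and from 5 to 13. The tissue counts stayed between 31 and 34, 32 and 33, and 25 and 27. In the fits with 1 library left out, 599 to 1491 of all 17459 genes were called for KO against WT in mESC.

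Well numbers in mESC did not pair the samples, since same-numbered wells correlated at 0.0055, 0.016 and 0.045. With a replicate block on the well number, 2 genes were called between genotypes in mESC, 1 for mESC minus kidney and 0 for mESC minus GE/OB, and 7 other pathway genes. Of all 17459 genes, 914, 269 and 118 were called in these comparisons with the block, beside 1198, 391 and 188 without it.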
